A study of Mus musculus with 4 samples.

Results

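A set of 10 immediate-early genes was followed in leukaemia-type mouse cells: the EGR genes Egr1, Egr2 and Egr3, the NR4A genes Nr4a1, Nr4a2 and Nr4a3, the Krüppel-like genes Klf2, Klf4 and Klf6, and Ier2. They were picked out by their symbols, with earlier results of these data known. All 10 had a row among the 55426 genes of both deposited tables. Cells were lineage-negative mouse bone marrow progenitors that had been transformed either by an MLL-ENL fusion, which joins a piece of MLL (Kmt2a), a histone methyltransferase, to ENL (Mllt1), a chromatin reader, or by an MLL-ENL ∆YEATS fusion (called dYEATS here) whose label gives ENL residues 372 to 559. The YEATS domain is the acyl-lysine reader of ENL. Which ENL residues the full fusion holds was not stated in the labels, so the residues that separate the fusions are known only from the mutant's label. Both lines grew in the same serum-supplemented medium, and nothing in the labels describes a stimulus or a change of serum before harvest. Each line gave 2 libraries of poly(A)-selected RNA, which the design text of the series names technical replicates. A test between the lines therefore measures the spread between libraries, and fusion and line cannot be told apart.

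Immediate-early genes are switched on within minutes of a growth factor, serum or stress signal, without new protein synthesis, and their mRNAs are short-lived. Their promoters are held ready by serum response factor with its ternary complex partners and by CREB, which kinases downstream of ERK and p38 activate. EGR proteins bind GC-rich sites through zinc fingers and induce their own co-repressor, Nab2. NR4A proteins are nuclear receptors that act without a known hormone, and mice that lack both Nr4a1 and Nr4a3 develop acute myeloid leukaemia. Among KLF proteins, which bind CACCC and GC boxes, Klf2 is known for the quiescence of lymphocytes and the restraint of monocyte activation, and Klf4 for monocyte differentiation.

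The stretches upstream of the start sites are shown for 5 of these genes because these letters are where the serum, CREB and EGR sites of such genes would be read. RefSeq windows (GRCm38.p6) that run from 250 bases before to 50 bases after a start were matched by symbol to 7 of the 10 genes, all but Egr1, Egr3 and Ier2. Egr2 had 5 windows and each of the other 6 genes had 1. Bases are printed 5′ to 3′ on the gene's strand, from the window's first base up to the start or to the first annotated exon inside the window. The windows shown for Nr4a1 and Egr2 belong to starts that lie inside the annotated span of the gene, downstream of its first exon. Capitals mark matches, on either strand, to the 8 patterns searched: the CArG box of serum response factor, the full CREB site TGACGTCA, its core TGACG, the EGR sites GCGTGGGCG and GCGGGGGCG, the ETS site CCGGAAGT, the TATA letters TATAAA and the NR4A element AAAGGTCA. The core is contained in the full CREB site. The sequences are from chr15:101266596-101266845 (plus strand) for Nr4a1, chr8:72318812-72319032 (plus) for Klf2, chr2:57124004-57124253 (minus) for Nr4a2, chr13:5861239-5861481 (plus) for Klf6 and chr10:67537619-67537868 (plus) for Egr2. The first pair belongs to genes that were higher in dYEATS, and the other 3 to genes that did not pass the test.
Nr4a1: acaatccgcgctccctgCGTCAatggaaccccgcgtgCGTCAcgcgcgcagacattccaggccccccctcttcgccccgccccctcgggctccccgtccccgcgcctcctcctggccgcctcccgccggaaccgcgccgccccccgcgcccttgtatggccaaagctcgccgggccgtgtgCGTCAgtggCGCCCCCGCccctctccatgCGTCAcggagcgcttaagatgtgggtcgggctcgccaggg
Klf2: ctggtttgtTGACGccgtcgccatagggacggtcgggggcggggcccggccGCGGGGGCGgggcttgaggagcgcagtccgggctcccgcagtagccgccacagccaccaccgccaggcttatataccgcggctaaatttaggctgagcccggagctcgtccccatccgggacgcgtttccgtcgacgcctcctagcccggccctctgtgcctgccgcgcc
Nr4a2: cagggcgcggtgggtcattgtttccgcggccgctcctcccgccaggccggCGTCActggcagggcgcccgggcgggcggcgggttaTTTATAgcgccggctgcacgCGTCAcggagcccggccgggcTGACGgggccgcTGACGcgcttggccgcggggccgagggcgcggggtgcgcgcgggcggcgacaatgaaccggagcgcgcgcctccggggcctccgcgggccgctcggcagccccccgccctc
Klf6: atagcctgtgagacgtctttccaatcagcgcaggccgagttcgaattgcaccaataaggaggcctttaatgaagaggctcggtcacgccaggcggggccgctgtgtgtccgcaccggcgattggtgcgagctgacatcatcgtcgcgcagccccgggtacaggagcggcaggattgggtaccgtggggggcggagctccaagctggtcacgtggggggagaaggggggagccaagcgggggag
Egr2: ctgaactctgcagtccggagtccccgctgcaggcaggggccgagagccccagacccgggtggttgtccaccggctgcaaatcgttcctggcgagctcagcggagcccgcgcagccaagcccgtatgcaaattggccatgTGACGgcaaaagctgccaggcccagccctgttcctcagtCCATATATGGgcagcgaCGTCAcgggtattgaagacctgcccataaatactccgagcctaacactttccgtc

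Both Nr4a1 and Klf2 hold the EGR letters GCGGGGGCG, which begin 60 bases upstream of the start of Nr4a1 (on the opposite strand) and 199 bases upstream in Klf2. Of all 32851 windows 2.91% hold these letters, and the window of Klf4, a gene with almost no reads here, holds them too. These windows are rich in G and C, at 72.3% for Nr4a1 and 69.3% for Klf2 against a median of 52.7% over all windows. The CREB core TGACG stands in the windows of Nr4a1, Nr4a2, Nr4a3, Klf2 and Klf4 and in 3 of the 5 windows of Egr2, against 20.8% of all windows, with 4 copies each in Nr4a1, Nr4a2 and Nr4a3. A CArG box was found only in Egr2 among the 7 genes, 72 bases upstream in the window shown, against 1.63% of all windows. Klf6 held none of the 8 patterns in its window. No member window held TGACGTCA (1.79% of all windows), GCGTGGGCG (0.612%), CCGGAAGT (3.89%) or AAAGGTCA (1.51%), and TATAAA (13.6%) stood only in that of Nr4a2. A match of letters is a description of the sequence and not a bound site, and no match says only that the letters are not in this window.

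Libraries held 27812855 to 28814798 expected counts, and 13245 genes passed a filter on low counts. Values are CPM, read counts scaled to library size with TMM factors. Fold changes are dYEATS relative to MLL-ENL, genes count as called where the adjusted p was under 0.05 (edgeR's quasi-likelihood test, Benjamini-Hochberg over all genes tested), and ± is the SD over n = 2 libraries or, where stated, the SE of the fit. The MLL-ENL libraries were further apart than the dYEATS libraries (chi-square per degree of freedom 89.8 against 1.99), and a ribosomal RNA gene took 9.25% of the counts in replicate 1 of MLL-ENL, against 4.94% to 5.46% elsewhere. Neither Mllt1 (64.9 and 61.6 CPM on average in MLL-ENL and dYEATS) nor Kmt2a (68.0 and 69.2 CPM) was called, and since their counts do not separate a fusion from the normal gene, they say nothing of the fusion present. The blood cell markers Ptprc and Spi1 were at 168 CPM or more in every library. Of the progenitor markers, Cd34 and Flt3 were too low to be tested. Kit was at 50.4 and 66.9 CPM in MLL-ENL and at 2.62 and 3.91 CPM in dYEATS. Runx1 was at 104.7 and 118.2 CPM in MLL-ENL and at 54.3 and 51.2 CPM in dYEATS. All 5 T-cell markers were at 0, as were 3 of 5 B-cell, 3 of 5 erythroid and 3 of 5 mast cell markers.

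Of these factors 3, 1 each of the EGR, NR4A and KLF genes, were several-fold higher in dYEATS. Nr4a1 rose 5.55-fold, Klf2 4.69-fold and Egr1 3.32-fold, and an increase of at least 2-fold was called in 4.19% of all tested genes. Their relatives Nr4a2, Klf6 and Egr2, and also Ier2, did not pass the test, and Egr3, Nr4a3 and Klf4 were too low to be tested. So 3 of the 7 tested members were called higher, where 7.04% of all tested genes were, and 0 were called lower, where 9.84% of all tested genes were (edgeR; 0 also at an unadjusted p under 0.05, with DESeq2 and with limma-voom). In 4 of the 7 both dYEATS libraries lay above both MLL-ENL libraries, which was so for 32.1% of all tested genes. The members were chosen with earlier results of these data known, so these counts beside the shares of all genes are no independent support. The filter keeps a gene that is high enough in 1 group, so the counts are also only over the members that passed. Egr2, with 8 and 4 counts in MLL-ENL and 13 and 14 in dYEATS, passed through dYEATS, where it was higher. Its separation was therefore favoured by the filter and is no support.

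**Figure D1:**
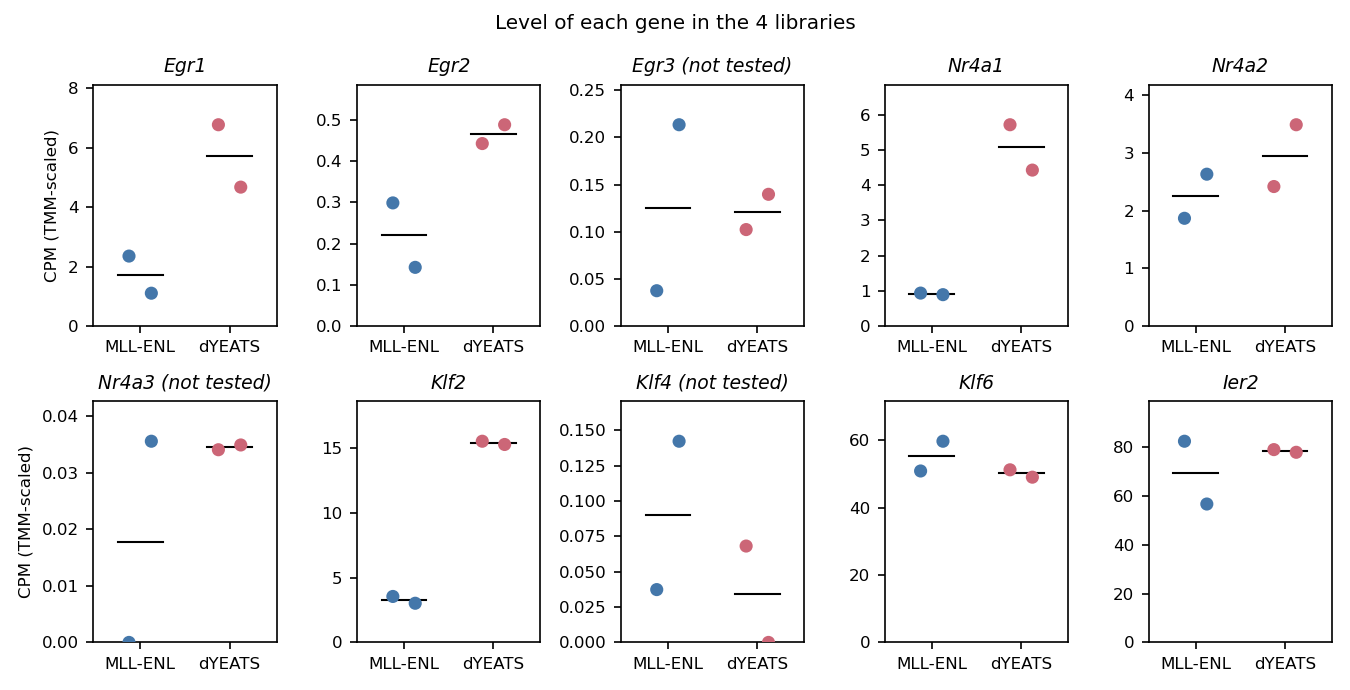
TMM-scaled CPM of each of the 10 genes in the 4 libraries, with MLL-ENL in blue, dYEATS in red, 1 point per library and a line at the group mean; each panel has its own axis, starting at 0. The points of the groups lie apart for Egr1, Egr2, Nr4a1 and Klf2 and overlap for the other 6 genes.

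Egr1, the zinc finger factor that couples ERK signalling to later gene expression and favours the macrophage over the granulocyte fate, lies on chromosome 18 (34859823 to 34864984, GRCm38). It had 63 and 31 counts in MLL-ENL replicates 1 and 2 and 199 and 134 counts in dYEATS replicates 1 and 2. In CPM these were 2.35 and 1.10 against 6.78 and 4.68. Both dYEATS libraries were above both MLL-ENL libraries, and within each group replicate 1 was clearly above replicate 2. The log2 fold change was 1.73 ± 0.39 (SE; edgeR's quasi-likelihood test, adjusted p = 0.0384), with a 95% interval from 0.75 to 2.72. This call was the least firm of the 3. It ended on the log2(FPKM + 1) and log2(FPKM + 0.1) scales with limma (adjusted p = 0.0508 and 0.0693), with library quality weights (0.122) and against a 1.5-fold threshold (0.0982), and the log2 fold change was 2.37 when MLL-ENL replicate 1 was left out and 1.28 when its replicate 2 was.

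Egr2, a related factor with roles in myeloid cells, T cells and myelination (chromosome 10, 67535475 to 67542188), had 8 and 4 counts in MLL-ENL and 13 and 14 in dYEATS. The groups did not overlap, at 0.299 and 0.142 CPM against 0.443 and 0.489 CPM, but the gene was not called (log2 fold change 1.07 ± 0.46 SE, adjusted p = 0.177, 95% interval -0.09 to 2.24). From the summed counts alone the ratio was 2.13, with an exact interval of counting error from 1.04 to 4.61. Egr3, which acts with Egr2 in lymphocytes (chromosome 14, 70077203 to 70082614), had 1 and 6 counts against 3 and 4, a ratio of 0.946 with an interval from 0.283 to 3.16. No difference in Egr3 was seen, and at this depth the interval leaves room for a ratio as low as 0.283 or as high as 3.16. The fourth gene of the family, Egr4, had no counts in any library, where 3 counts correspond to 0.102 to 0.112 CPM.

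The partners of the EGR proteins moved in part. Nab2, the co-repressor that EGR proteins induce and that limits them, rose from 2.13 and 2.60 CPM to 4.50 and 4.54 CPM (log2 fold change 0.93 ± 0.20 SE, adjusted p = 0.0316). Its call ended with DESeq2 (adjusted p = 0.0644), when either dYEATS library was left out (0.173 and 0.194), on the log2(FPKM + 0.1) scale (0.0669), with library quality weights (0.103) and against a 1.5-fold threshold (0.2). Its relative Nab1 was at 79.1 and 90.5 CPM against 76.6 and 79.8 CPM and was not called (adjusted p = 0.542). In each library Nab1 therefore had many more reads than Nab2.

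Nr4a1 (Nur77), the orphan receptor induced by antigen receptor and growth factor signals, had the largest increase of the 7 tested members. It lies on chromosome 15 (101254269 to 101274795) and had 25 counts in each MLL-ENL library and 168 and 127 counts in dYEATS. In CPM these were 0.934 and 0.889 against 5.72 and 4.43, so the MLL-ENL libraries were nearly equal and both dYEATS libraries were well above them. The log2 fold change was 2.47 ± 0.24 (SE; edgeR, adjusted p = 0.00282), with a 95% interval from 1.86 to 3.09. It was called under all 18 alternatives in which it was tested; it does not reach a filter at 5 CPM in 2 libraries. Of the 13245 tested genes 201 had a larger log2 increase.

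Nr4a2 (Nurr1; chromosome 2, 57106830 to 57124003), best known from dopamine neurons and also induced in leukocytes, had 50 and 74 counts in MLL-ENL and 71 and 100 in dYEATS. The groups overlapped, at 1.87 and 2.63 CPM against 2.42 and 3.49 CPM, and in each group replicate 2 was the higher. The log2 fold change was 0.39 ± 0.29 (SE; edgeR, adjusted p = 0.409), with an interval from -0.34 to 1.12 that leaves room for a 2.18-fold increase. It was called higher without MLL-ENL replicate 2 (log2 fold change 0.66, adjusted p = 0.0284). Nr4a3 (Nor1; chromosome 4, 48045153 to 48086447), the partner of Nr4a1 in the suppression of leukaemia in mice, had 0 and 1 counts against 1 and 1, at or under the floor of 3 counts per library, and no fold change is given.

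The order of the expressed pair of NR4A genes thus differed between the lines. Per gene length, the FPKM ratio of Nr4a1 to Nr4a2 was 0.702 and 0.478 in MLL-ENL and 3.30 and 1.76 in dYEATS. Nr4a2 was the higher of the pair in both MLL-ENL libraries and Nr4a1 in both dYEATS libraries. The summed FPKM of the 3 NR4A genes was 0.97 and 1.37 against 3.43 and 3.18. With 2 libraries against 2 an exact two-sided permutation test cannot reach a p under 0.05, so these ratios are given without one.

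NR4A1 and NR4A2 can bind DNA as partners of the retinoid receptor RXR, and of the 3 RXR genes 1 rose. Rxra went from 4.29 and 4.80 CPM to 22.6 and 24.8 CPM (log2 fold change 2.38 ± 0.14 SE; edgeR, adjusted p = 0.000609), Rxrb lay at 69.2 to 81.6 CPM and was not called, and Rxrg had no counts. Hdac7, a class IIa histone deacetylase that represses Nr4a1 in thymocytes together with MEF2, fell from 31.6 and 33.1 CPM to 18.3 and 17.0 CPM (adjusted p = 0.00777). Its call ended without dYEATS replicate 2 (0.102) and against a 1.5-fold threshold (0.0777). Over the whole list of 10 tested partners and co-repressors 2 rose and 1 fell, where 7.04% and 9.84% of all tested genes did. Its median log2 fold change was -0.15 against -0.01 over all tested genes. More of these partners were called with 1 MLL-ENL library left out, as over all genes, and fewer with 1 dYEATS library left out. A group then has 1 library and no spread of its own.

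Klf2 (chromosome 8, 72319033 to 72321656) had the smallest SE of the 3 genes that rose. It had 95 and 85 counts in MLL-ENL and 456 and 438 in dYEATS, or 3.55 and 3.02 CPM against 15.5 and 15.3 CPM. The libraries of each group lay close together and the groups far apart. The log2 fold change was 2.23 ± 0.15 (SE; edgeR, adjusted p = 0.00102), with a 95% interval from 1.84 to 2.62. It was called under all 19 alternatives, with log2 fold changes from 1.85 to 2.35.

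Klf6 (chromosome 13, 5861482 to 5870394), a widely expressed growth-restraining factor that also acts in inflammatory macrophages, was far more abundant and differed little. It lay at 50.9 and 59.8 CPM in MLL-ENL and at 51.3 and 49.1 CPM in dYEATS, and the groups overlapped (log2 fold change -0.14 ± 0.13 SE, adjusted p = 0.489). The 95% interval, from -0.46 to 0.18, leaves out an increase above 1.13-fold. It was called lower only without MLL-ENL replicate 1 (log2 fold change -0.25, adjusted p = 0.000448), where the spread rests on the dYEATS libraries alone and 54.7% of all tested genes were called. Klf4 (chromosome 4, 55527143 to 55532466) had 1 and 4 counts against 2 and 0, a ratio of 0.379 with an exact interval of counting error from 0.0360 to 2.31.

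**Figure D2:**
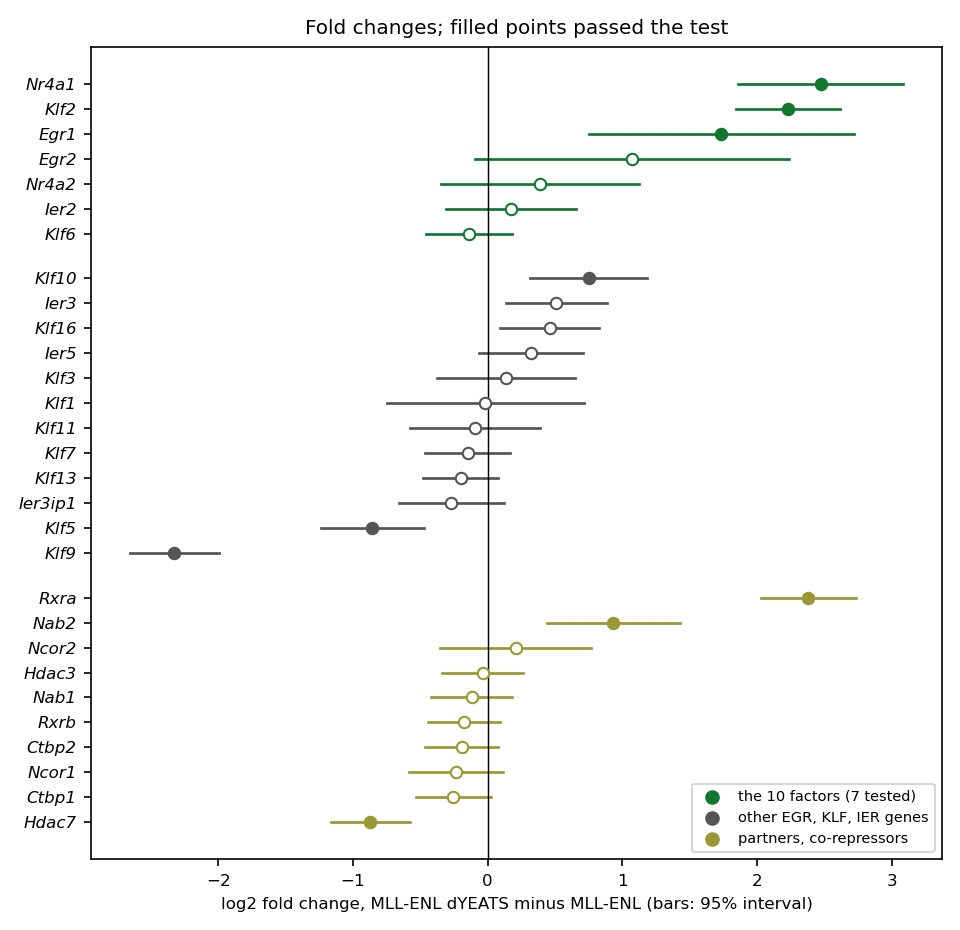
Log2 fold change (dYEATS minus MLL-ENL, horizontal axis) with its 95% interval for the tested members, the other tested EGR, KLF and IER genes and the tested partners and co-repressors; filled points had an adjusted p under 0.05. Nr4a1, Klf2 and Rxra stand furthest to the right, between 2.23 and 2.47, and Klf9 furthest to the left at -2.33.

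Within the KLF family the dYEATS libraries differed in single members, while the family's summed level overlapped between the lines. Of 17 KLF genes 11 were tested, of which 2 rose and 2 fell, where 7.04% and 9.84% of all tested genes did. Klf10, which TGF-beta induces early, rose from 11.3 and 15.3 CPM to 22.3 and 22.5 CPM (log2 fold change 0.75 ± 0.17 SE; edgeR, adjusted p = 0.0400). Klf9, a basic transcription element binding factor that steroid and thyroid hormones induce, fell from 50.4 and 57.1 CPM to 10.4 and 11.1 CPM (log2 fold change -2.33 ± 0.13 SE, adjusted p = 0.000532). Klf5, a growth-promoting factor of epithelia that also acts in granulocyte precursors, fell from 27.8 and 22.2 CPM to 14.3 and 13.3 CPM (edgeR, adjusted p = 0.0191). The fall of Klf9 was called under all 19 alternatives. That of Klf5 ended without dYEATS replicate 2 (adjusted p = 0.102), on the log2(FPKM + 1) and log2(FPKM + 0.1) scales (0.0635 and 0.0588) and against a 1.5-fold threshold (0.181). The rise of Klf10 ended in 7 alternatives, among them those without dYEATS replicate 1 or 2 (0.113 and 0.121). Over the 12 tested EGR, KLF and IER genes outside the 10 factors 1 rose and 2 fell, beside the same shares of all tested genes. Their median log2 fold change was -0.05. Leaving out 1 MLL-ENL library raised the number called, as over all genes, and leaving out 1 dYEATS library lowered the number called higher. A group then has 1 library and no spread of its own.

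Summed over the family, KLF transcripts came to 81.5 and 91.8 FPKM in MLL-ENL and to 92.8 and 88.1 FPKM in dYEATS, so the totals overlapped. Klf2 made up 2.65% and 2.15% of the MLL-ENL totals and 11.0% and 11.3% of the dYEATS totals. Klf9 made up 14.1% and 15.1% against 2.71% and 3.05%. By mean FPKM Klf9 went from the third to the ninth of the family, and Klf2 from the ninth to the fifth. Klf13 and Klf6 were among the 3 highest in both lines, at 14.1 to 16.3 FPKM and 12.5 to 15.8 FPKM. Klf1, the erythroid factor, lay at 0.960 to 1.34 CPM in all libraries (adjusted p = 0.977), and Klf4, Klf8, Klf12, Klf14, Klf15 and Klf17 were at or below 0.142 CPM in every library.

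**Figure D3:**
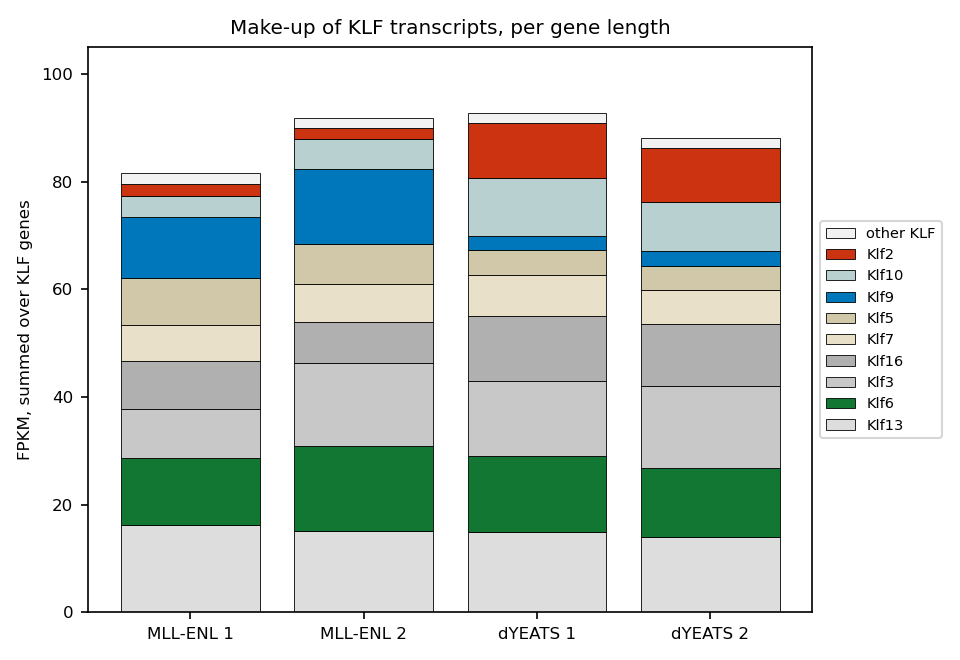
FPKM of the KLF genes stacked for each of the 4 libraries, with Klf2 in red, Klf9 in blue, Klf6 in green and the rest in pale shades. The bars are of similar height, between 81.5 and 92.8 FPKM, while the Klf2 segment is larger and the Klf9 segment smaller in both dYEATS libraries.

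Ier2, a small nuclear protein of the serum response that is encoded by 1 exon (chromosome 8, 84661331 to 84662852), was the highest of the 10 genes and was not called. It lay at 82.5 and 56.7 CPM in MLL-ENL and at 79.0 and 77.9 CPM in dYEATS. MLL-ENL replicate 2 was lowest, and MLL-ENL replicate 1 was above both dYEATS libraries. The log2 fold change was 0.17 ± 0.19 (SE; edgeR, adjusted p = 0.578), with an interval from -0.31 to 0.66. Its direction rests on 1 library: the log2 fold change was 0.47 without MLL-ENL replicate 1, and -0.07 when MLL-ENL replicate 2 was left out instead. Of its relatives, neither Ier3 (log2 fold change 0.51, adjusted p = 0.0773) nor Ier5 (0.32, adjusted p = 0.216) was called.

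Compared per gene length, the 10 genes covered a wide range. In the MLL-ENL libraries the order of mean FPKM was Ier2 (54.9), Klf6 (14.1), Klf2 (2.07), Nr4a2 (0.745), Egr1 (0.565), Nr4a1 (0.420), Egr2 (0.120), Egr3 (0.035), Klf4 (0.030) and Nr4a3 (0.005). The libraries of Nr4a2 and Egr1, of Egr1 and Nr4a1, of Egr3 and Klf4 and of Klf4 and Nr4a3 overlapped, and the other neighbours did not. In the dYEATS libraries the order was Ier2 (64.7), Klf6 (13.5), Klf2 (10.1), Nr4a1 (2.32), Egr1 (1.87), Nr4a2 (0.970), Egr2 (0.190), Egr3 (0.035), Nr4a3 (0.020) and Klf4 (0.015), where Nr4a1 and Egr1 and the last 3 overlapped with their neighbours. Klf2 thus came close to Klf6: the FPKM ratio of Klf2 to Klf6 was 0.173 and 0.125 in MLL-ENL and 0.717 and 0.780 in dYEATS. Among tested genes these factors were mostly low. In mean FPKM Egr1 exceeded 11.2% of tested genes in MLL-ENL and 22.9% in dYEATS, Nr4a1 8.85% and 25.0%, and Klf2 23.3% and 46.2%, while Ier2 exceeded 84.3% and 86.4%.

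The genes with the profile most like Egr1 over the 4 libraries, by Euclidean distance of centred log2(CPM + 0.5), were Lrrc42 (0.249), the endosomal GTPase gene Rab7b (0.392) and Dusp2 (0.420), a nuclear phosphatase of ERK. Those most like Nr4a1 were the tyrosine kinase gene Bmx (0.0594), the G-protein gamma subunit gene Gngt1 (0.0776) and Cyth3 (0.182), an exchange factor for ARF GTPases. All 6 were called higher, with log2 fold changes from 1.70 to 3.85. They were picked by profile over the same libraries, so these calls largely follow from the choice and are no support. The call of Lrrc42 ended against a 1.5-fold threshold (adjusted p = 0.0542) and with limma on the log2(FPKM + 1) and log2(FPKM + 0.1) scales (0.111 and 0.135, with log2 fold changes of 0.50 and 0.68), and that of Gngt1 with library quality weights (0.0528). Trafd1, Fnbp4 and Hgs were most like Klf6 and Dnajb2, Tbl3 and the pseudogene Rpsa-ps1 most like Ier2, with distances of 0.0396 or less. With 4 libraries many genes share a profile, and the distances are a description only.

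Other immediate-early genes were higher in part. Of 32 tested genes outside the 10 factors 12 rose and 0 fell (edgeR; 16 and 0 at an unadjusted p under 0.05, 13 and 0 with DESeq2, 12 and 0 with limma-voom), with a median log2 fold change of 0.51 against -0.01 over all tested genes, of which 7.04% rose and 9.84% fell. The AP-1 gene Fosl1 rose from 0.598 and 0.747 CPM to 5.96 and 5.93 CPM (adjusted p = 0.00106). Arc, known from synapses and also induced by serum, had 2 counts in MLL-ENL and 78 in dYEATS, a ratio of 36.9 with an exact interval of counting error from 9.88 to 310.1. It passed the filter through dYEATS, where it was higher, so the filter favoured its call. More of the other immediate-early genes were called with 1 MLL-ENL library left out, as were more of all tested genes. The spread then rests on the dYEATS libraries alone. Fewer were called with 1 dYEATS library left out. Many of these genes are shared with lists on which results of these data were already known, so the count is no independent support.

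**Figure D4:**
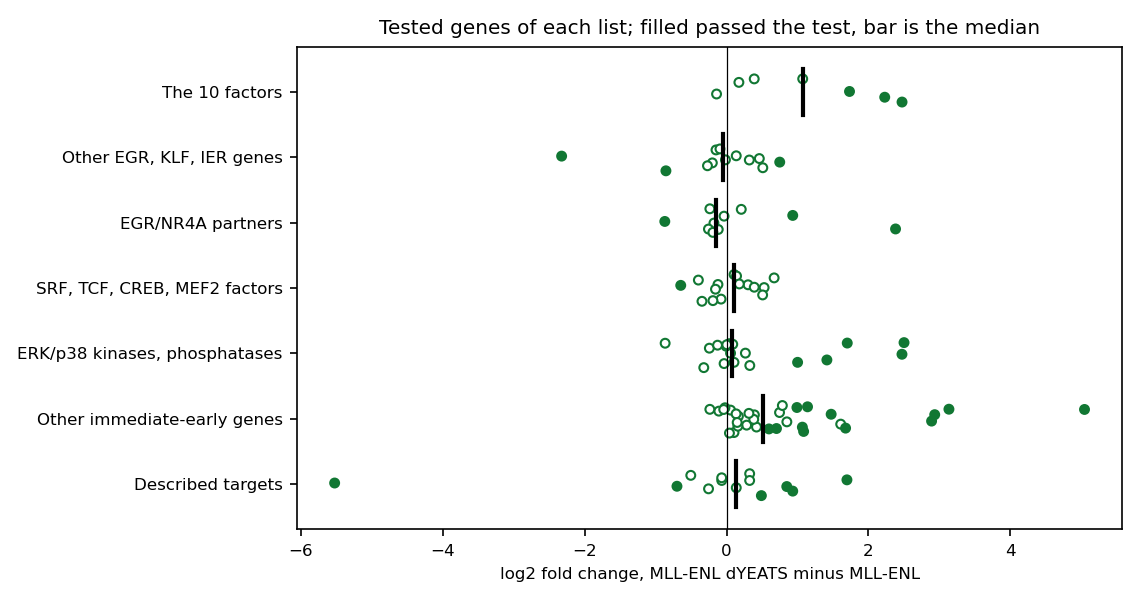
Log2 fold changes (dYEATS minus MLL-ENL, horizontal axis) of the tested genes of each list, 1 point per gene, filled where the adjusted p was under 0.05, with a bar at the median. The other immediate-early genes reach from -0.24 to 5.05 (the fitted value of Arc, which had 2 counts in MLL-ENL) with a median of 0.51, and the factors that act on immediate-early promoters stay between -0.65 and 0.67.

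For the factors that act on such promoters the count of calls was near the background of 7.04% higher and 9.84% lower over all tested genes. Of 15 tested genes of the SRF, ternary complex, CREB and MEF2 groups 0 rose (edgeR; 3 at an unadjusted p under 0.05, 2 with DESeq2 and 0 with limma-voom) and 1 fell. The count of higher genes moved with the scaling, to 1 with DESeq2's size factors and 2 with upper-quartile factors, both in edgeR. Srf was at 132 and 150 CPM against 162 and 142 CPM (adjusted p = 0.616), and the ternary complex gene Elk1 at 10.4 and 15.8 CPM against 18.1 and 19.7 CPM (0.157). The member that fell, Mef2c, went from 24.8 and 28.6 CPM to 16.7 and 17.5 CPM (adjusted p = 0.0262), a call that ended without dYEATS replicate 1 or 2 (0.311 and 0.221) and in 4 other alternatives. The list had more calls in both directions with 1 MLL-ENL library left out, as over all genes, and fewer with 1 dYEATS library left out. A group then has 1 library and no spread of its own.

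Among 18 kinases and phosphatases between ERK or p38 and these promoters 5 rose and 0 fell (edgeR; 1 lower at an unadjusted p under 0.05, 0 with DESeq2 and limma-voom), where 7.04% and 9.84% of all tested genes did. The list's median log2 fold change was 0.07 against -0.01 over all tested genes. Dusp5, a nuclear ERK phosphatase that ERK itself induces, rose from 2.88 and 2.17 CPM to 13.9 and 14.1 CPM (adjusted p = 0.00126), and Dusp4 from 0.411 and 0.284 CPM to 1.98 and 1.99 CPM (0.00535). Dusp2, Dusp6 and the kinase gene Rps6ka2 were the others that rose, and Dusp6 and Rps6ka2 were chosen after their values were seen. Dusp1, a phosphatase for p38 and JNK and itself an immediate-early gene, was at 2.80 and 3.98 CPM against 1.94 and 1.78 CPM and was not called (adjusted p = 0.0770). With 1 MLL-ENL library left out more genes of the list were called in both directions, as over all genes. The spread then rests on the dYEATS libraries alone.

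Genes described as targets of EGR, NR4A or KLF factors went both ways. Of 13 tested genes 4 rose and 2 fell, where 7.04% and 9.84% of all tested genes did. Their median log2 fold change was 0.14, against -0.01 over all tested genes. Id2, an inhibitor of helix-loop-helix factors, rose from 0.709 and 1.17 CPM to 2.69 and 3.45 CPM (adjusted p = 0.0214), a call that ended against a 1.5-fold threshold (0.0524) and with library quality weights (0.0956). Nab2 counts here as well. The T-cell regulator gene Tox, which NR4A factors are known to raise in exhausted T cells, fell from 14.0 and 19.7 CPM to 0.409 and 0.314 CPM (log2 fold change -5.52 ± 0.30 SE, adjusted p = 0.000487). S1pr1, a described KLF2 target, had no counts in any library. Fewer genes of the list were called with 1 dYEATS library left out, and more with 1 MLL-ENL library left out, as over all genes. A group then has 1 library and no spread of its own.

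Markers of maturing cells differed between the lines as well, where 7.04% of all tested genes were higher and 9.84% lower. Of 4 tested monocyte and macrophage markers 3 were higher, with summed levels of 33.9 and 43.7 CPM against 76.8 and 75.5 CPM over the list of 6, where 2 were too low to be tested. Of 6 granulocyte precursor markers 3 were lower, with sums of 6743 and 5641 CPM against 3425 and 3445 CPM. Of the 4 tested blood and progenitor markers Kit (58.7 against 3.27 CPM on average) and Runx1 were lower and Spi1 higher, with sums over 6 genes of 516 and 633 CPM against 572 and 572 CPM. Among other lineages 2 markers were higher, Itgax of the dendritic list (0.0542 against 2.05 CPM on average) and Pdgfra of the endothelial and stromal list (0.0178 against 0.379 CPM). Itgax had 1 and 2 counts in MLL-ENL and 66 and 53 in dYEATS, and Pdgfra 0 and 1 against 11 and 11. Each was the only tested gene of its list and passed the filter through dYEATS, where it was higher. The filter favoured these calls, and they are no support. Those lists and the mast cell, megakaryocyte, erythroid and B-cell lists summed to 8.55 CPM or less in every library. In bulk RNA, more cells that express a gene and more RNA per cell cannot be told apart, and the part of these shifts in the levels of Egr1, Nr4a1 and Klf2 was not tested. Heat shock genes had adjusted p-values from 0.194 to 0.855 for the 6 that were tested, with sums of 5225 and 4346 CPM against 5214 and 5158 CPM.

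**Figure D5:**
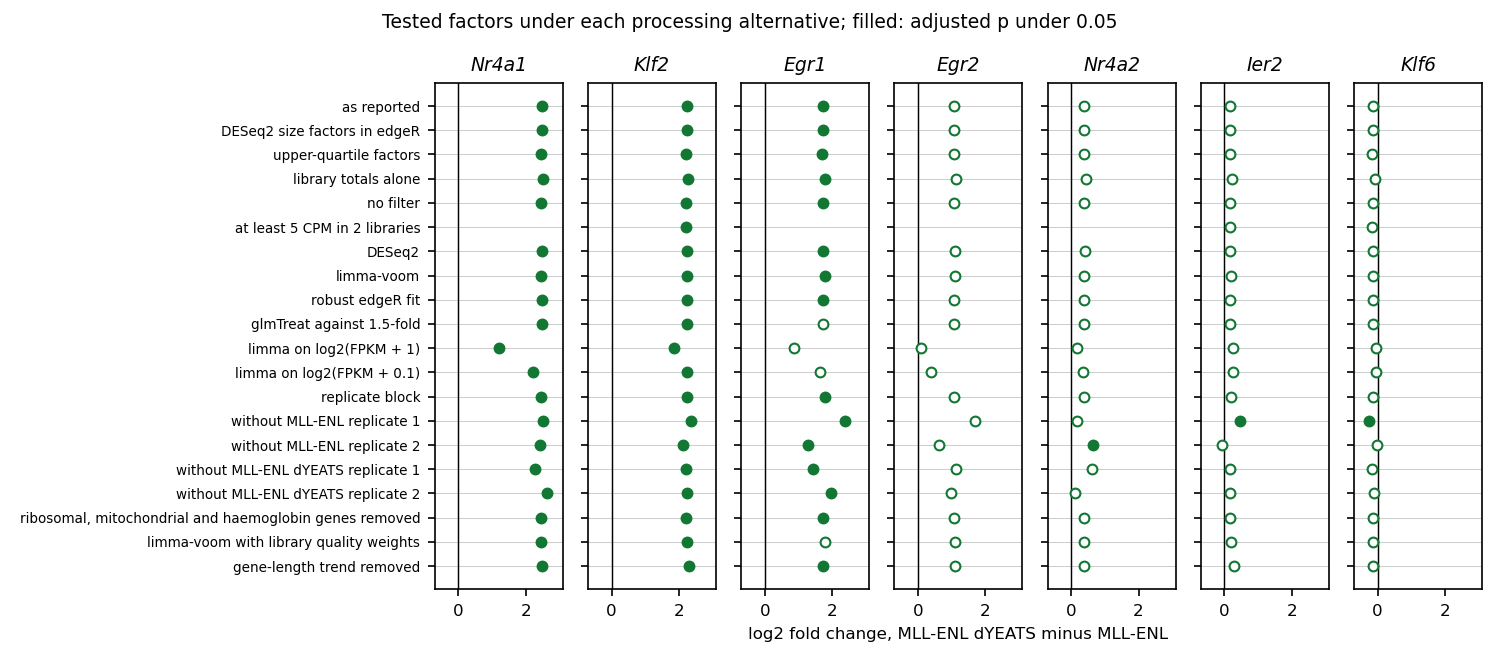
Log2 fold change (dYEATS minus MLL-ENL, horizontal axes) of the 7 tested members as reported and under each processing alternative (rows); filled points had an adjusted p under 0.05, and a gap means that the gene was under the filter. Nr4a1 and Klf2 are filled in each row that has a point, and Egr1 is open in 4 rows. Nr4a2, Ier2 and Klf6 are filled in 1 row each, where 1 MLL-ENL library was left out and the spread rests on dYEATS alone.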

How the data were processed

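Poly(A)-selected RNA was sequenced from 2 MLL-ENL and 2 MLL-ENL dYEATS libraries, grouped by their titles. STAR 2.7.8a, RSEM 1.3.3, cutadapt 2.3, FastQC 0.11.8 and the GRCm38 build are listed, without settings, in the submitters' processing notes. The annotation release and strand setting were not given in the sources. The authors deposited expected counts per gene, which were whole numbers, and FPKM, scaled by gene length and library size. No gene of GENCODE M21 overlapped a member.

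Expected counts (rounding changed none) were filtered with filterByExpr, scaled by TMM and tested with edgeR 4.0.16 (R 4.3.3; glmQLFit with legacy set to true, glmQLFTest) with Benjamini-Hochberg adjustment. SE is the log2 fold change over the square root of F, and intervals use 95% limits. The script was checked on simulated counts. Low genes have exact (Clopper-Pearson) intervals and a floor of 3 counts per library, which cover counting error only. Levels between genes are FPKM.

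The members and lists were chosen with earlier results of these data known. Named genes are the members, the fusion partners, in each list the 2 called genes that rose most and the 2 that fell most, at 1 CPM or more, and the 3 nearest profiles of the highest member per family; others were chosen after their values were seen. A few genes of these lists are counted but not reported here by name. Alternatives were other scalings, filters and tools (DESeq2 1.42.0, limma 3.58.1), log2 FPKM with pseudocounts of 1 and 0.1, a replicate block and each library left out; quality weights and removal of a gene-length trend were added after the data were seen.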

Additional observations from a re-analysis of the deposited data

How the results depend on the processing

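Klf2 and Nr4a1 were called higher in each alternative in which they were tested, and the number of members called higher was 3 or 2 except at a minimum of 5 CPM in 2 libraries (1, with 3 members tested) and with 1 library left out (3 to 4). Members called lower were 0 except with 1 library left out (0 to 1). Over all genes 932 were higher and 1303 lower. These numbers were 545 and 805 at 5 CPM and 432 and 720 against a 1.5-fold threshold, which asks for a larger change. At 5 CPM 9745 genes were tested instead of 13245, and 13.9% were called instead of 16.9%. The cause of that lower share was not tested. With limma on log2(FPKM + 1) 837 were lower (the cause was not tested), and with 1 library left out 548 to 4598 were higher and 844 to 4501 lower. A lone library is then assumed to vary like the other group.

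Of the lists, the EGR, KLF and IER relatives had 0 higher with library totals, at 5 CPM, against 1.5-fold and on both FPKM scales, 2 with the gene-length trend removed, and 1 lower against 1.5-fold and on both FPKM scales. The partners had 1 higher at 5 CPM, with DESeq2, against 1.5-fold, on log2(FPKM + 0.1) and with quality weights, and 0 lower against 1.5-fold. The SRF, ternary complex, CREB and MEF2 list had 1 higher on both FPKM scales, 3 with the replicate block and 2 with quality weights, with ribosomal, mitochondrial and haemoglobin genes removed and with the length trend removed, and 0 lower with library totals, against 1.5-fold and on both FPKM scales. The described targets had 0 higher and 1 lower against 1.5-fold, and 2 higher at 5 CPM, on log2(FPKM + 0.1) and with quality weights. The kinases and phosphatases had 1 lower with the replicate block.

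With the replicate block 1435 genes were called higher and 1698 lower, and the block changed the call of no member. Same-numbered libraries share only a number: the correlation of their deviations was -0.0677. With 1 library left out the log2 fold change ran from -0.0710 to 0.4669 for Ier2, -0.2825 to 0.4155 for Kmt2a, -0.0845 to 0.4335 for Dnajb2, -0.0469 to 0.5054 for Tbl3 and -0.2379 to 1.3862 for Rpsa-ps1. The direction of Ier2, Dnajb2, Tbl3 and Rpsa-ps1 reversed without MLL-ENL replicate 2, and that of Kmt2a without MLL-ENL replicate 1 and without dYEATS replicate 1 (-0.0066). Kmt2a also reversed with the gene-length trend removed (-0.0272), and Fnbp4 with limma on log2(FPKM + 1) and log2(FPKM + 0.1) (0.0403 and 0.0418). The cause was not tested. None of these genes was called with all libraries in. Depth limits Egr2, Egr3, Nr4a3 and Klf4, with 14 counts or fewer in each library.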
